A study of Mus musculus with 3 samples.

Results

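Accessible chromatin after inhibition of the mitochondrial pyruvate carrier (MPC) with UK5099 was set against vehicle, gene by gene. The members were all genes of the deposited ATAC-seq gene table with a height above 0 in both libraries, 18889 of 18890 genes. For each of them the height in UK5099 was divided by the height in vehicle, and this ratio was divided by the median ratio of all genes, 1.15, giving a relative ratio of 1 for the median gene. The UK5099 library came from basal-derived organoids of wild-type mouse prostate kept in 10 µM UK5099 for 7 days, and the vehicle library from the same kind of organoids kept in vehicle for 7 days. Another library, from organoids given 20 mM sodium lactate for 7 days, is used only to place single values. The primary basal cells came from male C57BL/6J mice, and all groups share this wild-type background and the same organoid culture. There was 1 library per group, so no value has a replicate error, no test between cultures is possible, and every difference given here is a difference between 2 libraries.

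UK5099 is a small molecule that blocks the MPC, a heterodimer of Mpc1 and Mpc2 in the inner mitochondrial membrane through which pyruvate made in the cytosol reaches the matrix for oxidation. When entry is blocked, pyruvate can instead be reduced to lactate in the cytosol. The prostate epithelium holds basal cells, marked by keratins 5 and 14 and by p63, and secretory luminal cells, marked by keratins 8 and 18. Basal cells grown as organoids can give rise to luminal cells, and the question put to these libraries was how chromatin differs when the carrier is inhibited during this culture.

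In ATAC-seq a transposase cuts open chromatin, so that stacked reads form a peak over accessible DNA. The value per gene is the average peak height, the stacked coverage at the highest bin of each merged region, averaged over all regions assigned to a gene. Median heights were 58.7 in UK5099 and 51.3 in vehicle, which rest on medians of 154 stacked reads per gene in UK5099 and 233 in vehicle. The vehicle library was 1.74 times as deep as the UK5099 library, if the authors' scaling equalised depth. The interval given beside a single gene's ratio is a 95% interval (Clopper-Pearson, exact, conditional on the sum of the stacked reads). It holds counting error alone, and is narrower than it should be where both ends of 1 fragment are stacked. All 6 basal markers checked were listed, with summed heights of 385 in UK5099 and 279 in vehicle. The 6 luminal markers summed to 227 in UK5099 and 302 in vehicle, and 4 stromal markers to 219 in UK5099 and 183 in vehicle. The 2 listed endothelial markers, of 3 checked, summed to 87.9 in UK5099 and 84.3 in vehicle, and the 3 listed immune markers, of 4 checked, to 86.0 in UK5099 and 96.0 in vehicle, while Cdh5 and Cd3e were not listed. The part of these other cell types in the results was not tested. In a bulk library, fewer cells of a type and less accessible chromatin per cell cannot be told apart.

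Most genes had nearly the same relative height in both libraries. Relative ratios between 0.8 and 1.25 were held by 71.6% of genes, and the quartiles were 0.871 and 1.13. At the deposited scaling 75.7% of genes were higher in UK5099, a shift of 0.21 on the log2 scale for the median gene, and all ratios below are relative to that shift. A relative ratio of 1.5 or more, the upper limit, was reached by 740 genes (3.92%), and 1370 genes (7.25%) stood at the lower limit of 1/1.5 or below. Of these, 217 reached 2 or more and 431 were at 0.5 or less. Counting intervals left out the median gene for 632 of the 740 higher genes and for 1091 of the 1370 lower genes. Over all genes, whatever their ratio, 14.2% of intervals lay above 1 and 14.2% below it. Most genes past a limit had low peaks, since 462 of the higher and 937 of the lower genes had a mean height under 36 over the 3 libraries. Among the 14198 genes at 36 or more, 278 (1.96%) were past the upper and 433 (3.05%) past the lower limit, and single genes are named from this set except where stated. This mean includes both compared libraries, so a gene can reach 36 through the library in which it is high. Hist2h4, for example, had a mean of 36.1 from 61.0 in UK5099, 27.3 in lactate and 20.1 in vehicle. Next to the limits, Rel (78.3 in UK5099, 45.2 in vehicle) was just past the upper and 2310068J16Rik just under it, and Capn13 (42.8 in UK5099, 55.6 in vehicle) was just past the lower and Wdsub1 just short of it. Cecr2 lay just above the height minimum and B430319G15Rik just under it.

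**Figure D1:**
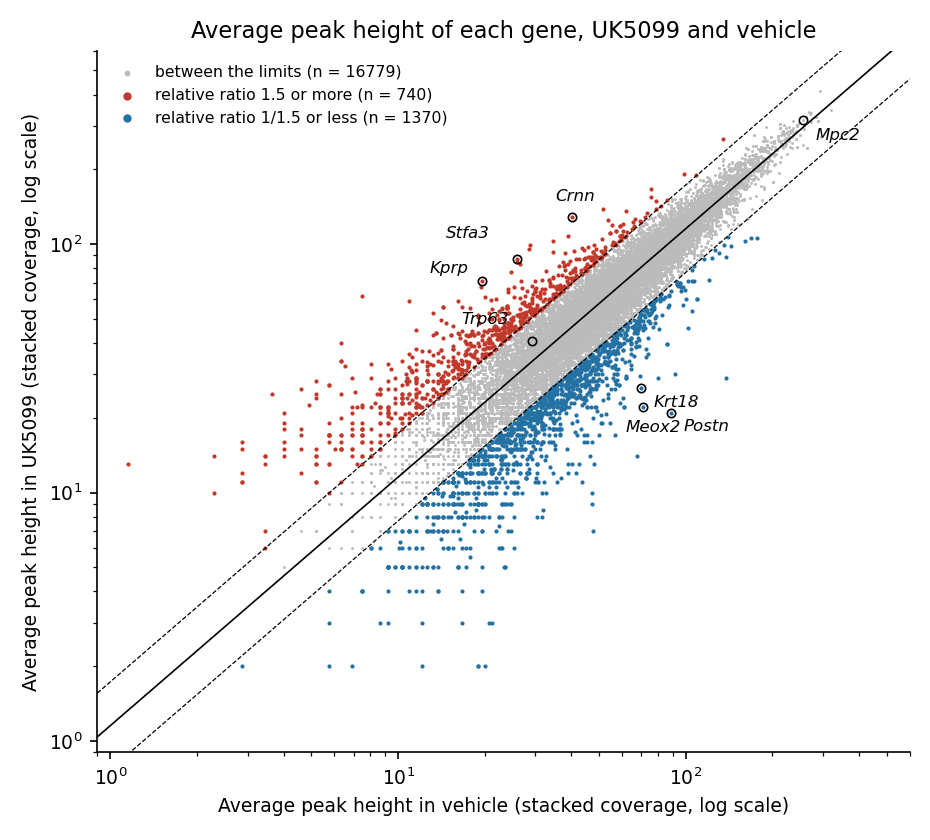
Average peak height of each of the 18889 genes in UK5099 (vertical) and vehicle (horizontal), both as stacked coverage on log scales. The solid line is the median ratio, 1.15, dashed lines are the limits, and red and blue points are the 740 genes past the upper and 1370 past the lower limit, which sit mostly at low heights.

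The 12 genes with the highest relative ratios came from several classes, and among them were 3 known from squamous, cornifying epithelium, Kprp, Sprr3 and Crnn. Kprp, a keratinocyte proline-rich protein, had a height of 71.0 in UK5099, 29.7 in lactate and 19.5 in vehicle, a relative ratio of 3.15 (interval 2.06 to 4.89). Sprr3, a small proline-rich precursor of the cornified envelope, had 99 in UK5099, 32.5 in lactate and 28.7 in vehicle (2.98, interval 2.1 to 4.28). Crnn encodes cornulin, a marker of late squamous differentiation, and it had the highest height of the set, 128 in UK5099, with 97.5 in lactate and 40.2 in vehicle (2.76, interval 2.23 to 3.41). These 3 genes lie on 1 stretch of chromosome 3. Stfa3, a stefin A inhibitor of cysteine proteases, had 87.0 in UK5099, 49.5 in lactate and 25.9 in vehicle (2.91, interval 2.01 to 4.27). Mill1, an MHC class I-like gene, had 67.5 in UK5099, 26.0 in lactate and 19.4 in vehicle (3.01, interval 2.44 to 3.73). It had 4 called peaks in UK5099, at -131, -4611, -6563 and -8387 bp from its start, and 2 in vehicle, at -35 and -6499 bp. The other 7 were Bcl2l10, of the Bcl-2 family of cell death regulators, Wrnip1, which binds the Werner helicase, Hist2h4, a histone H4 gene, Il19, a cytokine of the interleukin-10 family, AA619741, BC027072 and Armc3, with relative ratios between 2.85 and 2.38. Over all 12, heights ran between 55.5 and 128 in UK5099 and between 17.8 and 40.2 in vehicle, so the ranges did not overlap. The choice by ratio favours this, and so does a height minimum on a mean that includes UK5099. At the deposited heights lactate lay between UK5099 and vehicle for 12 of the 12, which the choice by extreme ratio also favours. Called peaks were more than 1 kb from the start for 9 of the 12, and 7 had a single region.

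The windows around 2 of these single regions are shown for their AP-1 motif and 1 for having none of the motifs. Each window is 201 bases of the forward strand of GRCm38 (mm10), centred on the deposited peak point, and capitals mark any of 15 motifs searched on both strands. The Sprr3 window (chr3:92455164-92455364) lies 3456 bp from the start of Sprr3 in no annotated gene and holds an AP-1 motif, TGANTCA, the site of Fos and Jun factors, and a TEAD motif, GGAATG. The Hist2h4 window (chr3:96255996-96256196), also linked to Hist2h2aa1 and Hist2h3c1, holds an AP-1 motif and lies in the gene Gm20627, outside its exons. The Stfa3 window (chr16:36455516-36455716), at -224 bp from the start and in no annotated gene, holds none of the 15. Of the 7 single-region windows of the 12 highest genes, 2 hold an AP-1 motif, and both are shown, while 3 hold none of the 15. Among all single-region genes at the height minimum, 25.3% of the 722 windows beyond 1 kb of the start hold an AP-1 motif. Within 1 kb, 4.67% of 1991 windows do. The 250 bases before the RefSeq start of Crnn (chr3:93144539-93144788, forward strand, GRCm38.p6) border a peak called in both libraries 13 bp after the start, and hold 1 AP-1 motif.
Sprr3: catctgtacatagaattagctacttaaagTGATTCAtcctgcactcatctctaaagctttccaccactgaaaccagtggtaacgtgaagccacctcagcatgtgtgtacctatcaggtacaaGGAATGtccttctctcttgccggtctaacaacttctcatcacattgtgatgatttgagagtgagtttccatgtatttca
Hist2h4: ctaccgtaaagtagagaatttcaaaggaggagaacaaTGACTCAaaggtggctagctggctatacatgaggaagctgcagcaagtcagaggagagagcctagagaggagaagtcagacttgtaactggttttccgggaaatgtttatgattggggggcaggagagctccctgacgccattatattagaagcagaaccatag
Stfa3: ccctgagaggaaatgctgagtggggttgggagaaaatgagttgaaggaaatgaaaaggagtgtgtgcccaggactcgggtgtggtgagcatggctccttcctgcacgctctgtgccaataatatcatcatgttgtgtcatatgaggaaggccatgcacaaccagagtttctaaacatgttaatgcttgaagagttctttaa
Crnn: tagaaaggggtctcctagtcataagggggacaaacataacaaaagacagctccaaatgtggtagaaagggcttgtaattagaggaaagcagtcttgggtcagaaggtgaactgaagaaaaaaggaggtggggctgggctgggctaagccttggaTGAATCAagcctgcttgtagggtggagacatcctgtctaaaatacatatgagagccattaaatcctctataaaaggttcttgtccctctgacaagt

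Genes with the lowest relative ratios came from several tissues and included a defining luminal keratin. Postn, which encodes the matrix protein periostin, had a height of 21 in UK5099, 41.9 in lactate and 88.5 in vehicle, a relative ratio of 0.206 (interval 0.124 to 0.325). Its only called peak, at -2483 bp from the start, was called in vehicle and not in UK5099. Meox2, a homeobox factor of mesoderm, had 22.0 in UK5099, 38.2 in lactate and 70.7 in vehicle (0.270, interval 0.163 to 0.427). Lyg1, a goose-type lysozyme gene, had 30.0 in UK5099, 53.7 in lactate and 92.0 in vehicle (0.283, interval 0.185 to 0.419). Sh2d1b1, an adaptor known from natural killer cells, had 19.0 in UK5099, 41.5 in lactate and 54.6 in vehicle (0.301, interval 0.174 to 0.497), and its called peak was 140 bp from the start. Krt18 was among the 12. The other 7 were Olfr372, an olfactory receptor gene, the miRNA gene Mir3967, Abcc2, an efflux transporter of the liver, Plekhg4, Cuzd1, Trcg1 and Fer1l4, with relative ratios between 0.259 and 0.340. Heights of all 12 ran between 15 and 30 in UK5099 and between 38.5 and 92.0 in vehicle. At the deposited heights lactate lay between the 2 for 9 of the 12, as the choice favours, and above vehicle for Abcc2, Cuzd1 and Fer1l4. Lactate was not divided by a shift of its own, and the median heights of all genes were 60.3 in lactate and 51.3 in vehicle. Again 9 of the 12 had called peaks only beyond 1 kb, and 10 had 1 region.

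The Postn window (chr3:54358524-54358724) lies in no annotated gene and holds a Gata motif, AGATAA. The Meox2 window (chr12:37142204-37142404) lies 33726 bp into the gene, outside its exons and also within Gm48617, and holds an AP-1 motif. The Lyg1 window (chr1:37954860-37955060), within Lyg1 and outside its exons, holds 1 AP-1 motif, and the Sh2d1b1 window (chr1:170277052-170277252), in no annotated gene, holds 2. Of the 9 single-region windows read for the 12 lowest genes, 6 hold an AP-1 motif, 3 of them shown. For the 12 highest genes this tally was 2 of 7. Among all single-region genes at the height minimum the motif is in 25.3% of the 722 windows beyond 1 kb. Within 1 kb it is in 4.67% of 1991.
Postn: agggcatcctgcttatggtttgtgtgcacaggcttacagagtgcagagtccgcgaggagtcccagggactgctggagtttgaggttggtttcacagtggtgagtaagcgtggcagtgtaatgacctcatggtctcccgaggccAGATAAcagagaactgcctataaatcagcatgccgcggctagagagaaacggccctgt
Meox2: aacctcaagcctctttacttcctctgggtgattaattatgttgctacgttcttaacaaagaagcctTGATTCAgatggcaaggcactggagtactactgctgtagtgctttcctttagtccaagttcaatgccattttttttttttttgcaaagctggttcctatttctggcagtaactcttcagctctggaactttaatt
Lyg1: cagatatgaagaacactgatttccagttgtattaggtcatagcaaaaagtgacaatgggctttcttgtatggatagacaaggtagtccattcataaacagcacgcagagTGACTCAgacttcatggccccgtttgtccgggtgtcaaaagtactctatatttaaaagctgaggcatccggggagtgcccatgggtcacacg
Sh2d1b1: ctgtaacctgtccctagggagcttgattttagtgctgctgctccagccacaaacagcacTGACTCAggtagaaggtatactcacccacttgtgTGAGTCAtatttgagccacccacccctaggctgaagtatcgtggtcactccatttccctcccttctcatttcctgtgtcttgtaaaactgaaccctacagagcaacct

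**Figure D2:**
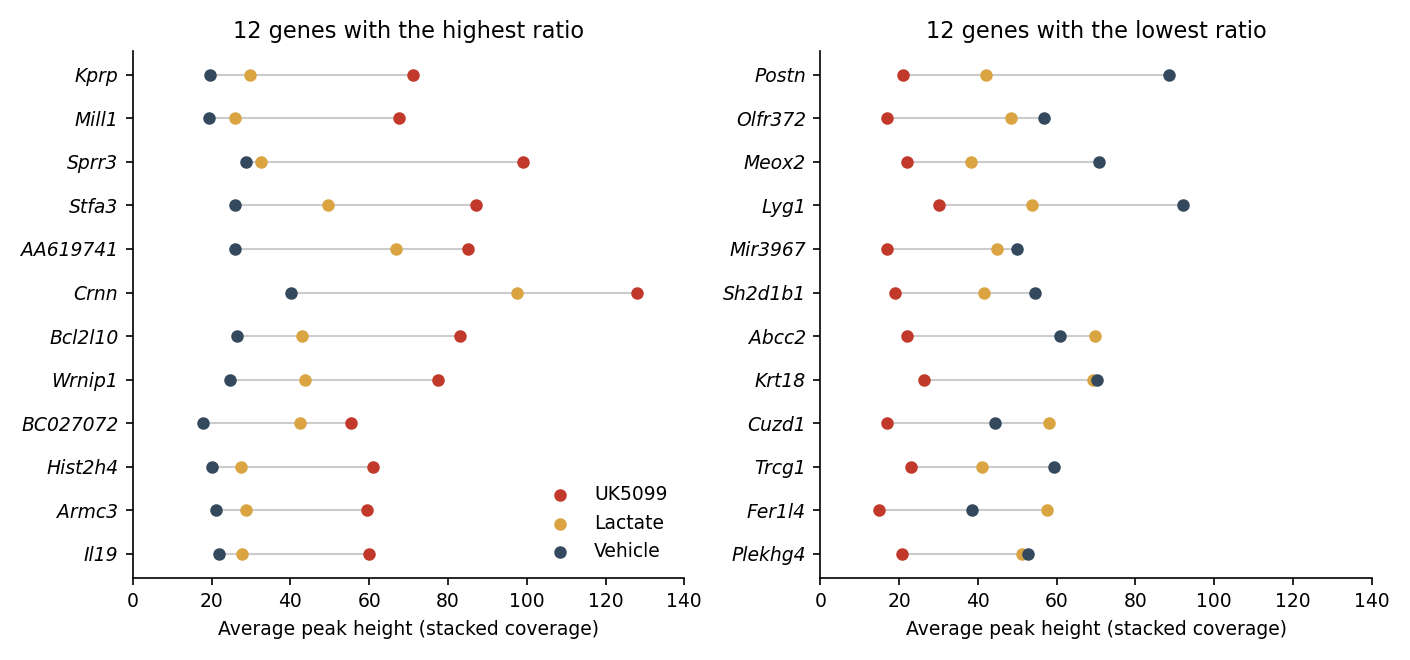
Average peak height in stacked coverage (horizontal) of the 12 genes with the highest and the 12 with the lowest relative ratio, in UK5099 (red), lactate (yellow) and vehicle (dark blue). UK5099 heights reach 55.5 to 128 on the left and 15 to 30 on the right. At these deposited heights lactate lies between the others for 12 and 9 of 12 genes, which the choice by ratio favours.

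Luminal keratin genes differed in height and in which peaks were called. Krt18, the type I keratin of simple epithelia, had 26.3 in UK5099, 69.1 in lactate and 70.1 in vehicle, a relative ratio of 0.325 (interval 0.252 to 0.416). In vehicle 3 peaks were called, at -10136, 8 and 6664 bp from the start. In UK5099 the single called peak was at -40 bp. Krt8, its type II partner, had 74.0 in UK5099, 96.8 in lactate and 90.3 in vehicle (0.710, interval 0.625 to 0.804). Its UK5099 peaks were called at -42 and -1290 bp and its vehicle peaks at -42 and -1258 bp and, besides these, at -9418, 8630 and 15958 bp. Vehicle was 1.74 times as deep as UK5099, if the scaling equalised depth, and the part of depth in these calls was not tested. Prom1, a surface marker of luminal cells, had 28 in UK5099, 30.2 in lactate and 51.1 in vehicle (0.474, interval 0.298 to 0.732). The 250 bases before the RefSeq start of Krt18 (chr15:102027966-102028215, forward strand, GRCm38.p6), where the UK5099 peak falls, hold none of the 15 motifs.
Krt18: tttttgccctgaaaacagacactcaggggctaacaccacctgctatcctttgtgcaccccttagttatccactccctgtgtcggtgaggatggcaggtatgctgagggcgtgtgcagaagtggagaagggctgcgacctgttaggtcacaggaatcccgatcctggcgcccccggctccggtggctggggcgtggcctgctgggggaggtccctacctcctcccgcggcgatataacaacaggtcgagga

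Basal factors were higher in UK5099 by smaller ratios. Trp63, which encodes p63, had 40.7 in UK5099, 36.2 in lactate and 29.2 in vehicle (1.21, interval 1.08 to 1.35) over 14 regions, a mean just under the height minimum. Its called peaks numbered 10 in UK5099 and 7 in vehicle. Of these, 5 in UK5099, at 41899, 118059, 121515, 128395 and 217067 bp from the start, had no vehicle peak within 250 bp, and 2 in vehicle, at 39595 and 166347 bp, had no UK5099 peak within 250 bp. Krt14 had 63 in UK5099 and 42.2 in vehicle (1.29, interval 1.12 to 1.49), and Krt5 had 77.7 in UK5099 and 58.8 in vehicle (1.14, interval 1.01 to 1.29). Hoxb13, a homeobox factor of the prostate, and Foxa1, a forkhead factor of its epithelium, stood at 1.05 and 1.07 with intervals that held 1. The targets of the drug were close to the median gene, with Mpc1 at 122 in UK5099 and 98.3 in vehicle (1.07, interval 0.905 to 1.27) and Mpc2 at 317 in UK5099 and 255 in vehicle (1.08, interval 0.929 to 1.25). Among tumour suppressors and oncogenes, Trp53 stood at 1.16, Rb1 at 0.941 and Myc at 0.994, and of these only the interval of Trp53, 1.01 to 1.34, left out 1.

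Over lists, 18 of 20 basal markers stood above the median gene, with a median relative ratio of 1.16, 1 past the upper and 0 past the lower limit. Of all genes, 3.92% were past the upper and 7.25% past the lower limit. Cav1, caveolin 1, was highest at 97.6 in UK5099 and 52.4 in vehicle (1.61, interval 1.42 to 1.84), followed by Col17a1, the hemidesmosomal collagen XVII, at 86.4 in UK5099 and 51.3 in vehicle (1.46, interval 1.28 to 1.67). Krt15 and Itgb4 were the 2 below the median gene, at 0.936 and 0.963. Luminal markers had a median of 0.861, with 8 of 20 above the median gene, 0 past the upper limit and 5 past the lower. Besides Krt18 and Prom1 these included Cldn3 at 71.0 in UK5099 and 107 in vehicle (0.576, interval 0.490 to 0.676) and Pigr, the receptor that carries immunoglobulin A into secretions, at 26.5 in UK5099 and 38.5 in vehicle (0.596, interval 0.425 to 0.825). The members did not share a direction, since Dpp4 had 45.8 in UK5099 and 26.7 in vehicle (1.48, interval 1.20 to 1.83), just under the height minimum, and Gata3 and Cdh1 stood at 1.23 and 1.20. Luminal progenitor markers had a median of 0.854 with 4 of 12 above the median gene and 3 past the lower limit. Psca, prostate stem cell antigen, had 40.5 in UK5099 and 56.0 in vehicle (0.626, interval 0.518 to 0.754), and Ppp1r1b 41.7 in UK5099 and 52.4 in vehicle (0.689, interval 0.591 to 0.802).

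Chromatin over clustered genes of cornified epithelium was higher in UK5099 at more than 1 locus. The 1-Mb windows that held 8 or more genes of distinct values numbered 821, and the median relative ratio of such a window was 0.999. In 6 windows the genes had a median of 1.25 or more and in 9 of 0.8 or less. The highest was the stefin A window on chromosome 16 between 36 and 37 Mb, with a median of 1.58 over 18 genes, 9 of them past the upper and 3 past the lower limit. These counts stand beside 3.92% and 7.25% of all genes. From Ccdc58 through Csta and the predicted stefin genes to Stfa3 and Casr, 9 consecutive genes of distinct values were past the upper limit, most of them under the height minimum. Csta, stefin A itself, had 52.0 in UK5099, 38.3 in lactate and 22.0 in vehicle (2.04, interval 1.60 to 2.62). The next genes along, Ildr1 and, under the height minimum, Slc15a2, were past the lower limit, Ildr1 with 45.5 in UK5099, 101 in lactate and 80.5 in vehicle (0.490, interval 0.382 to 0.623). The epidermal differentiation complex on chromosome 3 filled 2 more of the top windows. Between 92 and 93 Mb the median was 1.32 over 22 genes, with 9 past the upper and 0 past the lower limit, and between 93 and 94 Mb it was 1.39 over 8 genes.

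Within the complex the differences were uneven. Of 13 late cornified envelope (Lce) genes, 10 of them with distinct values, 5 were past the upper and 0 past the lower limit, beside 3.92% and 7.25% of all genes. The 5 include Lce3d and Lce3e, which share all values. Lce1k had 49.5 in UK5099 and 14.1 in vehicle (3.05, interval 2.14 to 4.38), under the height minimum. The called peak of Kprp is also linked to Lce1k, so the ratios of these genes are not independent. Lce3f had 66.5 in UK5099 and 27.0 in vehicle (2.13, interval 1.63 to 2.81). The envelope precursor Ivl, involucrin, had 49.5 in UK5099 and 22.4 in vehicle (1.91, interval 1.41 to 2.61), just under the height minimum. Among the 7 small proline-rich genes, Sprr3 and, under the height minimum, Sprr4 were past the upper limit, whereas Sprr1a had 82.0 in UK5099 and 78.2 in vehicle (0.909, interval 0.682 to 1.20) and Sprr1b and Sprr2k shared a ratio of 0.904. The S100 genes of the same chromosome had a median of 1.12, with 11 of 13 above the median gene. S100a8, a calprotectin subunit of inflamed epithelium, had 59.5 in UK5099 and 29.3 in vehicle (1.76, interval 1.34 to 2.31), and its partner S100a9 33.0 in UK5099 and 8.05 in vehicle, under the height minimum. Over the list of epidermal differentiation genes, which overlaps these loci, the median was 1.25, with 20 of 25 above the median gene, 9 past the upper and 1 past the lower limit. Tgm1, the transglutaminase that cross-links the envelope, had 139 in UK5099 and 78.5 in vehicle (1.53, interval 1.36 to 1.73), and Krtdap, a keratinocyte differentiation gene, 88.0 in UK5099 and 44.5 in vehicle (1.71, interval 1.37 to 2.14). Grhl3, a grainyhead factor of epidermal barrier formation, had 99.4 in UK5099 and 57.4 in vehicle (1.5, interval 1.32 to 1.70).

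The kallikreins of skin desquamation followed the same direction. Klk6 to Klk12, 7 neighbouring serine protease genes on chromosome 7, all stood above the median gene, with a median of 1.55. Past the upper limit were 4 of them (57.1%), against 3.92% of all genes. At the height minimum were Klk9 at 1.55 (interval 1.22 to 1.97), Klk11 at 1.36 (interval 1.08 to 1.71) and Klk12 at 1.35 (interval 1.01 to 1.80). The interval of Klk6, 0.659 to 2.74, held 1. Klk8 had 43.3 in UK5099, 24.5 in lactate and 16.3 in vehicle (2.31, interval 1.74 to 3.07), and Klk7 30.5 in UK5099, 16.5 in lactate and 11.2 in vehicle (2.36, interval 1.55 to 3.62), both under the height minimum. Klk10 had 45.2 in UK5099 and 24.6 in vehicle (1.60, interval 1.29 to 1.98), just under it. The 7 genes share regions. They were linked to 7 distinct called peaks in all, 6 of UK5099 and 1 of vehicle, and so are not independent measurements. Klk4, a kallikrein of prostate and tooth further along, had 30.0 in UK5099 and 35.6 in vehicle (0.729, interval 0.455 to 1.15), also under it.

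Keratin genes differed by the distance of their peaks. Of 21 type II keratins, 6 were past the upper and 0 past the lower limit, with a median of 1.14. Of 23 type I keratins 5 were past the upper and 2 past the lower, with a median of 1.24. The shares past these limits were 3.92% and 7.25% of all genes, and 8.03% and 13.7% of genes with only distant peaks. Among type II keratins the 14 whose called peaks all lay beyond 1 kb had a median of 1.47, and the 7 with a peak within 1 kb of the start 1.01. For type I keratins these medians were 1.33 over 15 genes and 1.11 over 8. The distant type I keratins had a median mean height of 28.5, under the height minimum, and the distant type II keratins 46.2. The hair keratins Krt84 (67.5 in UK5099, 25.3 in vehicle, 2.31, interval 1.75 to 3.06) and Krt82 (71.0 in UK5099, 26.7 in vehicle, 2.30, interval 1.76 to 3.02) were highest among type II keratins at the height minimum. Krt1, a keratin of suprabasal epidermis, had 76.3 in UK5099 and 39.7 in vehicle (1.67, interval 1.38 to 2.02). Among type I keratins Krt31, a hair keratin, was highest at the height minimum, with 136 in UK5099 and 62.1 in vehicle (1.90, interval 1.46 to 2.47), and Krt18 was lowest of all members.

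**Figure D3:**
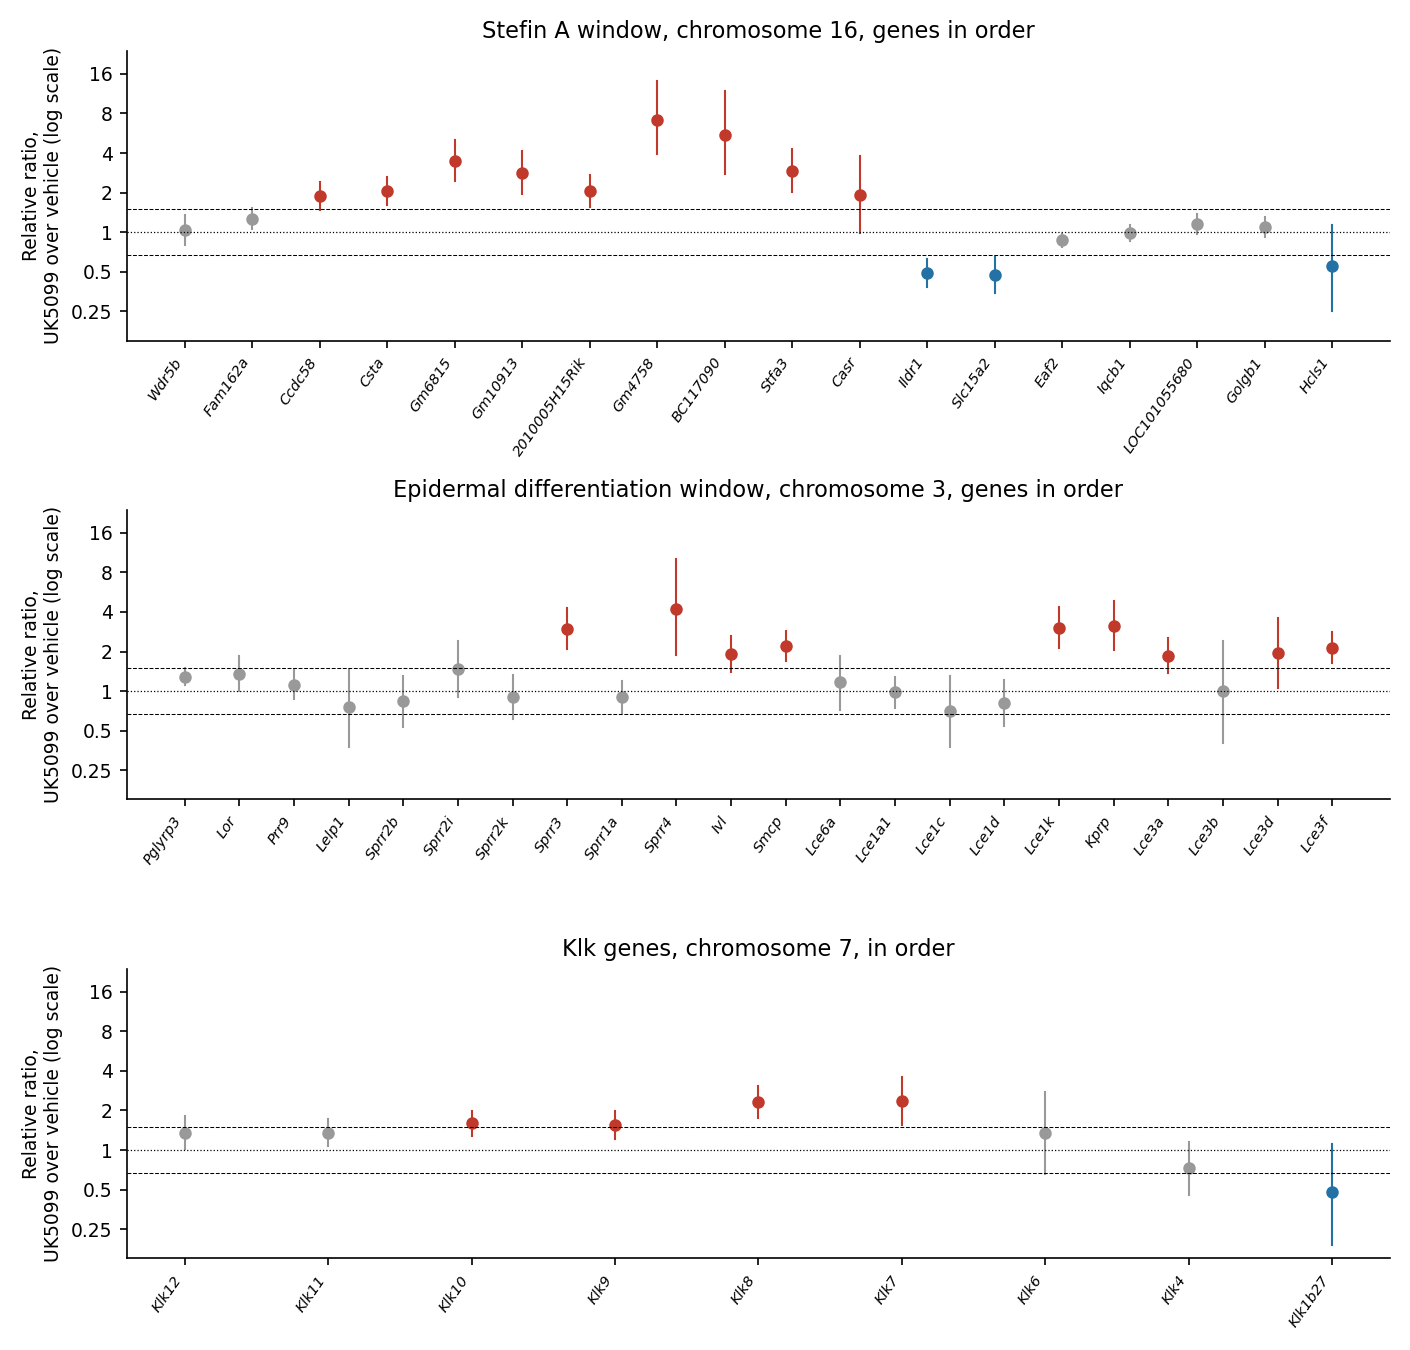
Relative ratio of UK5099 over vehicle (vertical, log scale) for genes in their order along the chromosome, genes of identical values once, in the stefin A window, the epidermal differentiation window between 92 and 93 Mb and the Klk genes. Bars are 95% counting intervals, dashed lines the limits, and 9 consecutive genes from Ccdc58 to Casr lie above the upper limit, followed by Ildr1 and Slc15a2 below the lower.

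Across all genes, differences in both directions were more frequent where peaks lay far from the gene start. The distance taken was that of the nearest peak called in any of the 3 libraries. With a peak within 100 bp of the start, 7794 genes had a median relative ratio of 1.0, and 1.82% of them were past the upper and 3.81% past the lower limit. Beyond 10 kb, 1469 genes had a median of 0.950, with 10.2% past the upper and 17.6% past the lower limit. The shares grew over each of the classes between. Distant peaks were also lower, at medians of 35.0 in UK5099 and 31.6 in vehicle beyond 10 kb, against 65.5 in UK5099 and 56.4 in vehicle within 100 bp, and low peaks carry more counting error. The relative ratio itself was lower at low heights. With all genes in 10 equal classes of mean height, its median was 0.879 in the lowest class and 1.04 in the highest. Among genes with a mean height of 36 or more the shares were 6.95% and 8.25% beyond 10 kb, against 1.19% and 2.33% within 100 bp. In the highest of 4 equal classes of height, genes with only distant peaks (beyond 1 kb) were past the upper limit in 1.63% and past the lower in 1.74%, against 0.368% and 0.447% for genes with a nearer peak.

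**Figure D4:**
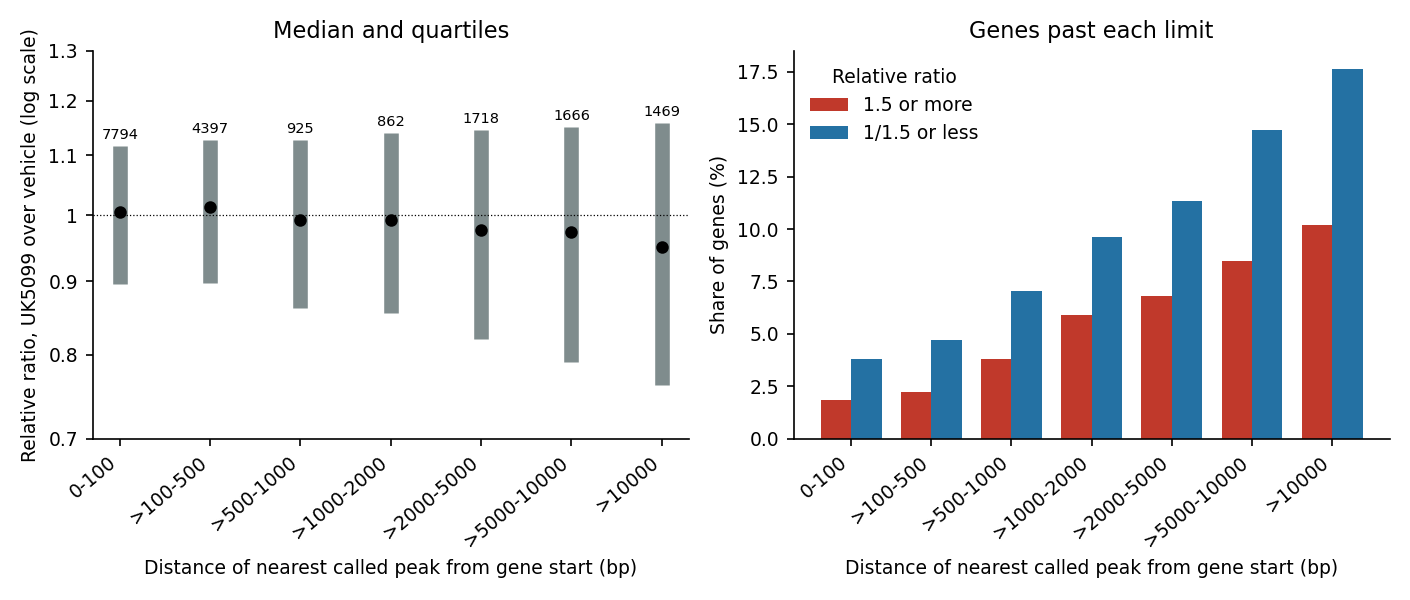
Left, median (point) and quartiles (bar) of the relative ratio of UK5099 over vehicle (log scale) by distance in bp of the nearest called peak from the gene start, with the number of genes above each bar. Right, the share of genes (%) past the upper (red) and lower (blue) limit, which reaches 10.2% and 17.6% beyond 10 kb.

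Genes whose called peaks all lay within 1 kb of the start numbered 2828, with a median of 0.997, and 2.62% of them were past the upper and 7.96% past the lower limit. The highest of these at the height minimum were Stfa3, Thbd and Klra2, of which Thbd, the anticoagulant receptor thrombomodulin, had 54.0 in UK5099, 39.6 in lactate and 22.4 in vehicle (2.09, interval 1.36 to 3.24). The lowest were Sh2d1b1, Fer1l4 and Gng10, of which Gng10, a G protein gamma subunit, had 20.0 in UK5099, 51.8 in lactate and 47.7 in vehicle (0.363, interval 0.211 to 0.597). Genes whose called peaks all lay beyond 1 kb numbered 5715, with a median of 0.973, and 8.03% of them were past the upper and 13.7% past the lower limit. By the place of a distant region, the lowest median was that of regions inside genes. Of genes with 1 region beyond 1 kb and a mean height of 36 or more, those with the region upstream had a median of 0.991 over 405 genes and those with it downstream 0.986 over 443. With the region in the gene the median was 0.943 over 184 genes, and 5.43% were past the upper and 14.1% past the lower limit. Genes with 1 region had a median of 0.982, and 7.15% and 13.7% were past the limits, whereas the 623 genes with 10 regions or more had a median of 1.02 and 1.44% and 1.93%. A height averaged over more regions rests on more stacked reads, and the part of this averaging in these shares was not tested. The 508 genes of chromosome X had a median of 1.05, the highest of any chromosome but Y, which had 4 genes.

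Called peaks were nearly as many in UK5099, 32375, as in vehicle, 32407, although vehicle was the deeper library if the scaling equalised depth. A peak of the other library lay within 250 bp of 78.0% of the UK5099 peaks and 77.9% of the vehicle peaks. Within 1 kb of a start these shares were 89.5% for UK5099 and 85.7% for vehicle, and beyond 10 kb 71.8% for UK5099 and 73.7% for vehicle. Genes with a peak called in UK5099 and none in vehicle numbered 568, and genes with one in vehicle and none in UK5099 666.

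Medians of the cell adhesion lists lay on both sides of the median gene, with connexins at 1.07 and integrins at 0.987. Desmosome genes, which anchor keratin filaments between cells, had a median of 1.12, with 12 of 15 above the median gene and 1 past the upper limit. That gene was Perp, with 94.0 in UK5099 and 50.9 in vehicle (1.60, interval 1.38 to 1.86), and Dsp, desmoplakin, followed with 109 in UK5099 and 70.9 in vehicle (1.33, interval 1.22 to 1.45). Hemidesmosome and basal laminin genes had a median of 1.08 with 7 of 11 above. Claudins, the sealing proteins of tight junctions, had a median of 0.878 (1.01 at the deposited scaling), with 6 of 19 above the median gene. Past the upper limit were 0 and past the lower 4 (21.1%, against 7.25% of all genes). Cldn23 had 88.0 in UK5099 and 124 in vehicle (0.617, interval 0.476 to 0.794), and Cldn8 stood the other way, with 44.5 in UK5099 and 28.2 in vehicle (1.37, interval 1.02 to 1.84). Tight junction scaffold genes had a median of 0.919 (1.06 at the deposited scaling) with 7 of 20 above.

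Lists of matrix genes had medians below the median gene. Past the lower limit were 7.25% of all genes, and past the upper 3.92%. With all genes in 10 equal classes of mean height, the median ratio was 0.926 in class 2 from the lowest and 0.975 in class 3. Median mean heights of these classes were 27.5 and 36.2. Adamts genes, secreted metalloproteases that cut proteoglycans, had a median of 0.796, with 3 of 19 above the median gene, 0 past the upper and 7 past the lower limit. Of these only Adamts15 had a mean height of 36 or more, with 28 in UK5099 and 49.1 in vehicle (0.494, interval 0.358 to 0.671), and among the 10 members at that height the median was 0.905. Small proteoglycan and elastic fibre genes had a median of 0.849, or 0.941 over the 12 at a mean height of 36 or more, with 4 of 19 past the lower limit. Mfap2, a microfibril gene, had 38 in UK5099 and 72.4 in vehicle (0.455, interval 0.308 to 0.658). Genes of epithelial-mesenchymal transition had a median of 0.861, or 0.843 over the 12 at a mean height of 36 or more, with 6 of 19 past the lower limit and 0 past the upper. Besides Postn these included Zeb2, a repressor of epithelial genes, with 27.0 in UK5099 and 58.6 in vehicle (0.399, interval 0.251 to 0.615), and Fn1, fibronectin, with 33.0 in UK5099 and 52.9 in vehicle (0.541, interval 0.402 to 0.720). Mmp9 had 56.0 in UK5099 and 34.8 in vehicle (1.40, interval 1.16 to 1.68). Collagens had a median of 0.922 (1.06 at the deposited scaling) with 6 of 35 past the lower and 1 past the upper limit.

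Secreted proteins of glandular epithelium showed values on both sides. Whey acidic protein (Wfdc) genes, small protease inhibitors clustered on chromosome 2 for the most part, had a median of 0.675 over 11 genes. Of these, 8 had distinct values, 5 stood above the median gene, 4 were past the lower and 2 past the upper limit. Wfdc12 and Wfdc15a, with the same region, had 60.0 in UK5099, 86.7 in lactate and 109 in vehicle (0.476, interval 0.350 to 0.639). Of 8 mucins, 3 were past the lower and 1 past the upper limit. For both lists these counts stand beside 7.25% and 3.92% of all genes. Muc4, a membrane mucin, had 29.0 in UK5099 and 45 in vehicle (0.558, interval 0.431 to 0.717), and Muc15, under the height minimum, 35.0 in UK5099 and 11.2 in vehicle (2.71, interval 1.80 to 4.11).

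Genes of inflammation did not share a direction. Nos2, inducible nitric oxide synthase, had 46.0 in UK5099, 75.4 in lactate and 102 in vehicle (0.392, interval 0.277 to 0.545), and Il17c, an epithelial cytokine, 39.7 in UK5099, 63.6 in lactate and 85.8 in vehicle (0.400, interval 0.324 to 0.491). Tslp, an epithelial cytokine that acts on dendritic cells, had 65.0 in UK5099, 34.1 in lactate and 28 in vehicle (2.01, interval 1.62 to 2.51). Over the 30 epithelial inflammatory mediators the median was 0.980, with 4 past the upper and 3 past the lower limit. Interferon response genes had a median of 0.904 (1.04 at the deposited scaling) with 4 of 36 past the lower limit (11.1%) and 0 past the upper. Among all genes 7.25% were past the lower and 3.92% past the upper limit. The 24 interferon response genes at a mean height of 36 or more had a median of 0.952. The antiviral gene Rsad2 was lowest of the list at 33.5 in UK5099 and 61.2 in vehicle (0.474, interval 0.355 to 0.627).

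Histone genes were higher as a group. Over 76 histone cluster genes, 52 of them with distinct values, the median was 1.11, with 59 above the median gene. Past the upper limit were 5 (6.58%) and past the lower 3 (3.95%), against 3.92% and 7.25% of all genes. The 5 past the upper limit all lay in the Hist2 cluster of chromosome 3, where Hist2h4 had 61.0 in UK5099, 27.3 in lactate and 20.1 in vehicle (2.63, interval 1.71 to 4.10). Its neighbours Hist2h2aa1 and Hist2h3c1 shared 56.5 in UK5099, 32.3 in lactate and 23.9 in vehicle (2.05, interval 1.53 to 2.76). The window printed above lies at their called peak. In the Hist1 cluster 41 of 52 genes, 34 of them with distinct values, were above the median gene, with a median of 1.12. Past the upper limit were 0 and past the lower 2. Counting intervals of 24 genes lay above 1 and those of 4 below it, against 14.2% and 14.2% of all genes. These genes share regions, with 78 distinct called peaks in 320 pairs of peak and gene, and so are not independent measurements. Their heights were large, 110 in UK5099 and 79.6 in vehicle at the median of the 56 histone genes with a peak within 1 kb. Enzymes of histone and DNA methylation had a median of 1.09 with 27 of 42 above, Tet2, a methylcytosine dioxygenase, at 50.7 in UK5099 and 33.1 in vehicle (1.32, interval 1.06 to 1.66). Histone deacetylases and sirtuins stood at 0.980 with 8 of 18 above, and acetyltransferases and bromodomain genes at 1.0 with 13 of 25 above.

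Genes of the pathway that the drug blocks stayed near the median gene. The carrier, the pyruvate dehydrogenase complex and its kinases and phosphatases had a median of 1.04, 9 of 15 above, and 0 past either limit, and 0 of the 15 intervals left out 1. Citric acid cycle genes had a median of 1.02, respiratory chain and ATP synthase genes 0.997 and glycolysis and glucose uptake genes 0.994, and in these 3 lists together 0 genes were past the upper limit and 1 past the lower. Ogdh, 2-oxoglutarate dehydrogenase, was highest of the cycle genes with 82.2 in UK5099 and 51.1 in vehicle (1.39, interval 1.20 to 1.62). Ldha, which makes lactate from pyruvate, had 116 in UK5099, 129 in lactate and 83.9 in vehicle (1.20, interval 1.0 to 1.43). The monocarboxylate transporters Slc16a1 and Slc16a3 stood at 1.18 and 1.11, with intervals that held 1, Slc16a1 under the height minimum. Slc16a7, a high-affinity pyruvate and lactate transporter, had 30.3 in UK5099, 49.5 in lactate and 46.6 in vehicle (0.564, interval 0.439 to 0.721), and the sodium-coupled carrier Slc5a8 37.3 in UK5099, 49.9 in lactate and 51.2 in vehicle (0.632, interval 0.502 to 0.791). Fatty acid oxidation genes had a median of 0.940 (1.08 at the deposited scaling) with 6 of 24 above. Past the lower limit were 2 (8.33%, against 7.25% of all genes). These were Echs1, enoyl-CoA hydratase, at 59.4 in UK5099 and 78.5 in vehicle (0.655, interval 0.570 to 0.752) and the peroxisomal oxidase Acox2 at 46.0 in UK5099 and 66.1 in vehicle (0.603, interval 0.419 to 0.856). Cholesterol synthesis genes had a median of 1.07 with 17 of 23 above and 0 past either limit. Srebf2, the sterol-responsive factor that drives them, had 60.3 in UK5099 and 35.3 in vehicle (1.48, interval 1.29 to 1.70). Gpt, a cytosolic alanine aminotransferase that interconverts pyruvate and alanine, had 126 in UK5099 and 53.7 in vehicle (2.02, interval 1.67 to 2.46), with called peaks only beyond 1 kb.

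Lists of genes that most cells use lay close to 1, cytosolic ribosomal protein genes at 1.02 over 76 genes, mitochondrial ribosomal protein genes at 1.02 over 74, proteasome genes at 1.02 over 47 and cell cycle and replication genes at 1.03 over 55. Hox genes, which hold positional identity, had a median of 1.07 with 25 of 34 above, and Hoxc4 was past the upper limit with 62.0 in UK5099 and 27.6 in vehicle (1.95, interval 1.31 to 2.90). Of the 98 lists, 10 had a median of 1.1 or more, 14 of 1/1.1 or less and 74 lay between.

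**Figure D5:**
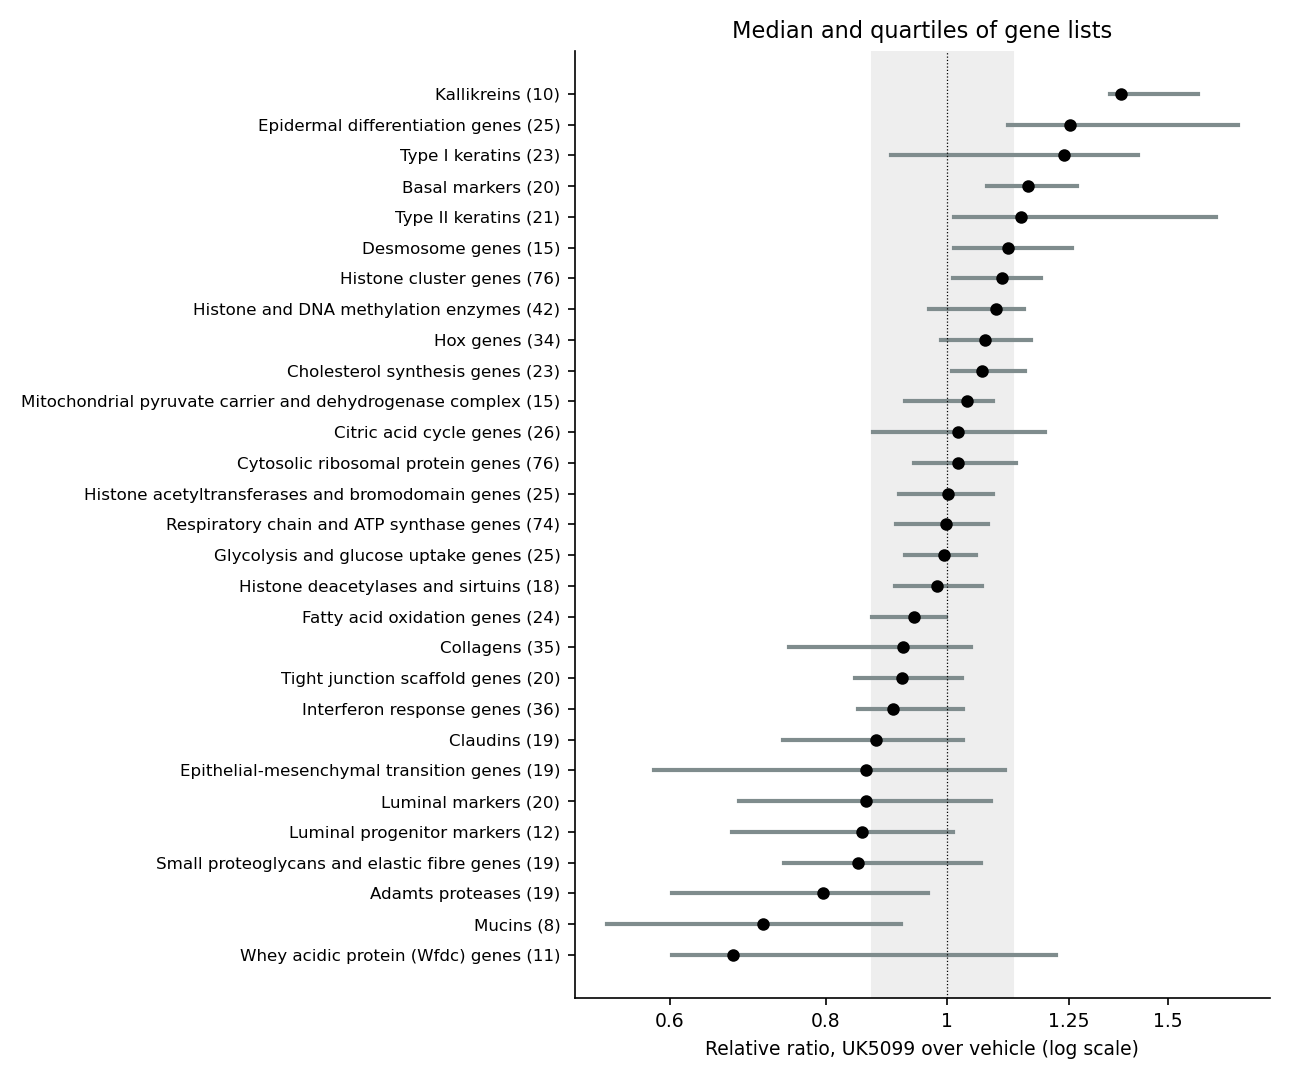
Median (point) and quartiles (line) of the relative ratio of UK5099 over vehicle (horizontal, log scale) for 29 of the 98 gene lists, with the number of genes in brackets. The grey band holds the quartiles of all genes, 0.871 to 1.13, and the medians run between 0.675 for Wfdc genes and 1.38 for kallikreins.

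Sequence was compared for genes with 1 region, where height and peak belong together. The 5130 such genes gave 4346 distinct windows of 201 bases, 1783 of them beyond 1 kb of the start. Among windows beyond 1 kb at a mean height of 36 or more, the AP-1 motif was held by 30 of 60 past the upper limit (50.0%), by 30 of 80 past the lower limit (37.5%) and by 21.1% of the 582 between the limits. It was held by 25.3% of all 722 such windows and by 6.87% of the 250 bases before the start of 27025 RefSeq genes. The share was thus larger past either limit than between the limits, and the median relative ratio was alike with the motif, 0.970, and without it, 0.977. The Klf and Sp motif GGGCGG ran the other way, at 16.7% past the upper limit, 12.5% past the lower and 38.1% between, beside 33.5% of all. Base composition moved with both, the median GC content being 50.2% past the upper limit, 52.2% past the lower and 57.2% between, and windows were therefore read by GC class, first those of 45 to 55%. Of 110 such windows with the AP-1 motif, 15.5% were past the upper and 19.1% past the lower limit, against 11% and 12.4% of the 145 without it. Under 45% GC the shares were 17.0% and 12.8% of 47 with the motif, against 12.9% and 22.6% of 31 without, so that the share past the lower limit was smaller with the motif. Over 55% GC they were 19.2% and 11.5% of 26 with it, against 2.75% and 6.89% of 363 without. Within 1 kb of the start, windows past the upper limit had a median GC content of 51.7%, those past the lower 62.2% and those between 64.7%.

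The motifs of steroid receptors and Runx factors were held by a larger share of the windows past the lower limit than of the others, although most windows that hold them lay between the limits. The palindrome of GNACA and TGTNC with 3 bases between, bound by steroid receptors, was in 0 of 60 windows past the upper limit, 6 of 80 past the lower (7.5%), 9 of 582 between and 2.08% of all 722. These 15 windows with the motif had a median relative ratio of 0.815. Without the height minimum it was in 0 of 252 windows past the upper limit, 13 of 384 past the lower and 1.51% of all. The Runx motif TGTGGTT was in 2 of 60 windows past the upper limit, 10 of 80 past the lower (12.5%), 22 of 582 between and 4.71% of all, with a median relative ratio of 0.840 over its 34 windows. The p53 family core pair, CATG and CATG with 6 bases between, was in 2 windows past the upper limit, 3 past the lower and 1 between, 0.831% of all. In all, 15 motifs were searched, the numbers behind these shares are small, and a match of letters does not show that a factor was bound. The lowest ratios with the steroid receptor motif belonged to Mfap2 (chr4:141024124-141024324, within Crocc, outside its exons) and to Wfdc15a (chr2:164196668-164196868, in no annotated gene), named after their values were seen. Capitals mark this motif and, for Mfap2, also a TEAD motif.
Mfap2: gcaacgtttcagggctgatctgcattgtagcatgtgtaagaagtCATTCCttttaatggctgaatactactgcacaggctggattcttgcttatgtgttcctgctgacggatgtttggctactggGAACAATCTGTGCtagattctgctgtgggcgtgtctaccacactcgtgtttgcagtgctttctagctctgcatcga
Wfdc15a: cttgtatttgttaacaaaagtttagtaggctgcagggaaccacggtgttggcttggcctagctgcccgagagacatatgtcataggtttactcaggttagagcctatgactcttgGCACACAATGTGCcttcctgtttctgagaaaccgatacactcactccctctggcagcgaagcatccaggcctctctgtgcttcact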

How the data were processed

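One ATAC-seq library each of UK5099, lactate and vehicle organoids was analysed, grouped by the treatment each sample's label gives. In the study's methods, reads were aligned with BWA to mm10, duplicates removed, fragments extended in silico and stacked in bins, and peaks called with MACS (MACS3 in the submitters' processing notes) without a control, exclusion-listed regions removed. A shift of reads for the transposase is mentioned neither there nor in the labels. The deposited file is 1 gene table from the authors whose signal columns hold the average peak height, with other columns for region counts, called-peak flags, peak distances and places. Regions were merged over these libraries and a further one not analysed here.

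Heights times the number of regions were whole multiples of a step per library, 1.00 in UK5099, 0.471 in lactate and 0.575 in vehicle, for at least 99.99% of genes within 0.05. Dividing by the step gave stacked reads at the peak's top, where 1 fragment need not be counted once, so no count test was run. Of the genes, 2965 share all values with another gene. The members and lists were chosen with earlier results of these data known.

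Genes were named by rule: among those with a mean height of 36 or more, predicted models left out and identical values taken once, the 12 highest and lowest relative ratios, the 3 highest and lowest with only near or only distant peaks, the 2 highest and lowest of a list, and a fixed set of genes, some of which are not reported here. Others named in the text were chosen after their values were seen. Alternatives were the deposited scaling, scaling to the same total, 10 added to both heights, the height minimum, stricter limits and identical values once. Peak points are the gene start or end plus the deposited distance; whether they are summits or centres is not stated. Windows were read from GRCm38, annotated with GENCODE M21, and promoters from RefSeq GRCm38.p6. The ratio and intervals were run on simulated data with independent counting error alone. That check does not cover doubly stacked fragments, shared regions or the spread between cultures. Python 3.11.15, numpy 2.4.6, pandas 2.3.3, scipy 1.17.1, pysam 0.24.0 and matplotlib 3.10.9 were used.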

Additional observations from a re-analysis of the deposited data

How the results depend on the processing

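The count of genes higher in UK5099, 740, was 1710 at the deposited scaling, 332 with 10 added to both heights, 278 among genes with a mean height of 36 or more and 217 with a limit of 2. The count of genes lower in UK5099, 1370, was 765 at the deposited scaling, 781 with 10 added, 433 at a mean height of 36 or more and 431 with a limit of 0.5. Scaling to the same total gave 735 higher and 1388 lower genes, and taking genes of identical values once gave 690 and 1249. The median of genes with only distant peaks, 0.973, was 1.12 at the deposited scaling and 0.995 at a mean height of 36 or more, and between 0.968 and 0.972 otherwise. Epidermal differentiation genes kept a median between 1.23 and 1.45 under the 5 alternatives. At the deposited scaling 44 of the 98 list medians changed to the other side of 1, against 1 with the same total, 4 with 10 added, 12 at a mean height of 36 or more and 3 with identical values once. Of 39 named genes, 2 changed side at the deposited scaling and 0 with 10 added, and 0 of those past a limit did so. With windows shifted by 500 kb, an alternative chosen after seeing the data, 11 windows had a median of 1.25 or more and 16 of 0.8 or less, against 6 and 9. No paired analysis was possible because each group has 1 library, and no library could be left out. One library a side leaves the spread between cultures unmeasured, and genes at low heights rest on few stacked reads.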
